A study of Mus musculus with 148 samples.

Results

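Gene expression in lung lymphocytes was compared between 3 tumor-bearing mice whose lungs held no visible metastasis (Pre-MET, mice 8, 9 and 10) and 3 control mice (status Normal, mice 1, 2 and 3). The lymphocytes were the wells annotated as a T cell class, an NK cell class or B, and they came to 1807 of the 3470 annotated immune cells of these 6 lungs and of 10411 lymphocytes in the whole series. T cells, NK cells and B cells were each summed per mouse, as were the CD4 Lef1, CD8 Gzmk and NK Ncr1 classes within them. All 6 mice were of the strain C57/b6 PA-GFP, which carries a photoactivatable green fluorescent protein, and the lungs were taken whole, without photoactivation, and sorted on the CD31neg_CD45 gate. Pre-MET mice had received EO771-tdTomato breast cancer cells in a mammary gland at 8 weeks of age, and their lungs were taken before the primary tumor was resected. The 9 control plates came from 1 sequencing batch and the 8 Pre-MET plates from 2 others, so the batch and the group cannot be told apart in any comparison of Pre-MET with control mice.

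T cells recognise peptides on MHC molecules through the T cell receptor. Naive T cells circulate with high Lef1 and Ccr7, whereas CD8 effector cells carry granule proteins (granzymes, perforin and cystatin F) and release chemokines such as Ccl4 and Ccl5. NK cells share this killing machinery without a rearranged receptor, and B cells present antigen on MHC class II and make immunoglobulin. All of them depend on ribosomes, whose protein genes are among the most abundant transcripts of a resting lymphocyte.

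Control lungs gave 403 to 510 lymphocytes per mouse and Pre-MET lungs 113 to 176. T cell sums held 246035 to 347589 unique molecular identifiers (UMIs) in control mice and 80947 to 124997 in Pre-MET mice, and the median T cell had 830.5 to 1068 and 737.5 to 975.5 UMIs. The smallest sums were those of 10 NK cells (9706 UMIs, mouse 10) and of 11 CD8 Gzmk cells (9958 UMIs, mouse 8), so the precision was lowest in these classes. Of the 56832 wells in the series, 0 names occurred on more than 1 plate. Levels below are CPM, the UMIs of a gene after scaling each sum to a total of 1000000 UMIs. Fold changes are log2 values of Pre-MET over control mice from edgeR's quasi-likelihood test, and genes with a Benjamini-Hochberg adjusted p below 0.05 were called.

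The class names were checked against their markers. CD8 Gzmk wells held Ccl5 in 153 of 155 control cells (98.7%) and 36 of 36 Pre-MET cells, and Cd8a in 53 (34.2%) and 8 (22.2%). Gzmk itself, a granzyme, was nearly absent from them, with 10 UMIs in the 155 control cells and 1 in the 36 Pre-MET cells, so the class is described here by Cd8a and Ccl5. CD4 Lef1 wells held a Cd4 UMI in 22 of 443 control cells (4.97%) and 11 of 186 Pre-MET cells (5.91%). Cd8a or Cd8b1 was seen in 117 (26.4%) and 33 (17.7%) of them, and 0 wells of either group held both a Cd4 and a Cd8 UMI. For comparison, Cd8a was seen in 9 of 350 control NK Ncr1 wells (2.57%), a narrower count that leaves out Cd8b1. Their median depth of 888.5 to 1110.5 UMIs per cell compares with 812.5 to 1076 in CD4 Lef1 cells. The CD4 Lef1 class therefore holds cells with Cd8 transcripts, and it is described here as a class high in Lef1 and Ccr7. NK Ncr1 wells held Ncr1, Klrb1c and Klre1, and B wells Ms4a1 and Cd79a.

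The T cell classes differed in their shares between the groups, which bears on every sum over T cells. CD8 Gzmk cells were 18.3%, 19.3% and 19.2% of the T cells of control mice 1, 2 and 3 and 11.2%, 13.6% and 12.2% of those of Pre-MET mice 8, 9 and 10. CD8 Gzma cells were 13.7%, 4.0% and 6.41% in control mice and 5.10%, 0.909% and 0.0% in Pre-MET mice. CD4 Lef1 cells were 50%, 57.7% and 54.7% in control mice and 58.2%, 70.0% and 63.4% in Pre-MET mice. The groups did not overlap in CD8 Gzmk and CD4 Lef1 shares and overlapped in CD8 Gzma shares.

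**Figure D1:**
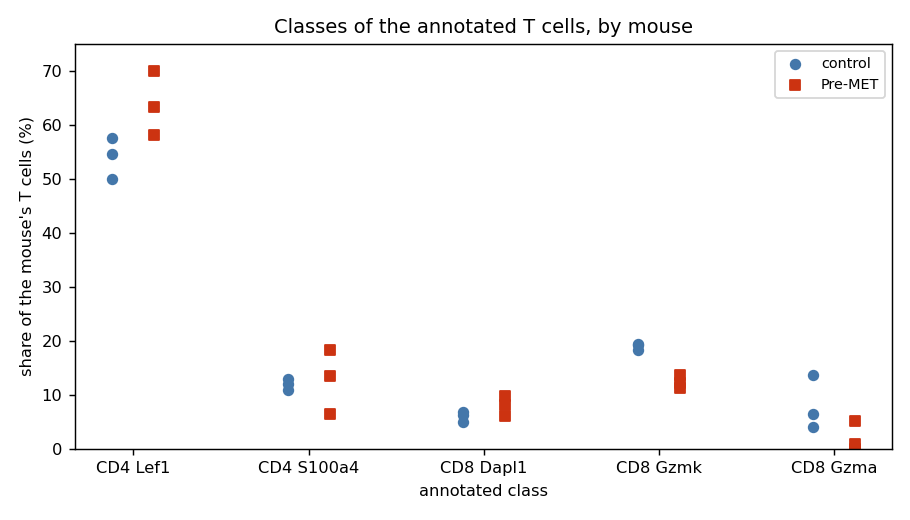
Share of each mouse's annotated T cells (%, vertical axis) in the 5 largest classes (horizontal axis), with 1 point per mouse, 3 control and 3 Pre-MET. Pre-MET mice had 11.2% to 13.6% CD8 Gzmk cells, all below the 18.3% to 19.3% of control mice.

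Over all T cells, the genes that fell in Pre-MET lungs included the effector genes Ccl5 and Cst7 and the coreceptor gene Cd8a, and most of those that rose were ribosomal protein genes or rows similar to them. Of 3218 genes tested, 8 fell (0.249%) and 48 rose (1.49%). The falls held Ccl5, Cst7, Id2, Cd8a, Rap1b, Calm2, Fam120a and Tmem70, and 37 of the 48 rises were ribosomal protein genes or rows with a near copy of their sequence. The 2 groups of mice did not overlap in any of the 56, whereas over all 3218 genes Pre-MET mice lay below control mice without overlap in 373 (11.6%) and above them in 395 (12.3%). Of the falls, Cst7, Fam120a and Tmem70 passed the filter on low counts through control mice alone, so that only a fall could be found in them, and of the rises Wfdc17 passed through Pre-MET mice alone. These calls depended on the mice and settings used: 0 of the 56 remained when mouse 1, mouse 2 or mouse 9 was left out, when only cells with at least 1000 UMIs were summed, or when all 8 statuses of the series shared 1 fit, while 0 changed direction in any alternative. Their median absolute log2 fold change was 1.43 (median SE 0.262), 1.19 (0.355) over the 54 tested in the deeper cells and 1.46 (0.604) with all statuses. The fit with all statuses held several samples of some mice, among them primary tumors of mice 8, 9 and 10, and had no term for the mouse. Without mouse 3, 8 and 10, respectively, 6, 3 and 29 of the 56 remained.

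Ccl5, a chemokine of effector T and NK cells, had the highest level among the genes that fell. It was at 12508, 6816 and 6995 CPM in control mice 1, 2 and 3 and at 4052, 3496 and 1581 CPM in Pre-MET mice 8, 9 and 10, a log2 fold change of -1.52 ± 0.30 (SE; adjusted p = 0.0352). Every Pre-MET mouse was below every control mouse, and control mouse 1 stood above the other controls.

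Cst7, which encodes cystatin F, an inhibitor of granule proteases, had 32, 46 and 33 UMIs in control mice (103, 132 and 134 CPM) and 1, 0 and 1 UMIs in Pre-MET mice (log2 fold change -3.99 ± 0.84, adjusted p = 0.0377). Id2, a transcriptional regulator needed by effector CD8 T cells and NK cells, was at 435, 512 and 366 CPM against 143, 208 and 74.1 CPM (-1.56 ± 0.34, adjusted p = 0.0424). Cd8a, the alpha chain of the CD8 coreceptor, was at 784, 682 and 772 CPM against 286, 280 and 432 CPM (-1.16 ± 0.25, adjusted p = 0.0377). None of these 3 genes overlapped between the groups. The shares of CD8 Gzmk cells given above were also lower in Pre-MET mice without overlap, while those of CD8 Gzma cells overlapped. The part of these shares in the falls was not tested. Within the CD4 Lef1 class Cd8a was at 351, 399 and 437 CPM against 201, 179 and 282 CPM without overlap (-0.87 ± 0.35, adjusted p = 0.330, not called). In this class 179 of 1952 tested genes were lower without overlap (9.17%).

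Rap1b, a small GTPase of integrin activation, was at 626, 509 and 439 CPM in control and at 226, 224 and 222 CPM in Pre-MET mice (-1.21 ± 0.26, adjusted p = 0.0407). Calm2, a calmodulin gene, was at 800, 837 and 971 CPM against 393, 448 and 445 CPM (-1.0 ± 0.21, adjusted p = 0.0377). Fam120a had 17, 62 and 54 UMIs against 0, 2 and 1 (-3.78 ± 0.86, adjusted p = 0.0463). Tmem70, needed to assemble the mitochondrial ATP synthase, had 37, 34 and 16 UMIs in control mice and 0 in each Pre-MET mouse (adjusted p = 0.0377), which is at least 9.30-fold lower with a floor of 3 UMIs over the pooled Pre-MET sums. Apart from Rap1b and Calm2, these counts are small and their counting error is large.

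Ccl4, another effector chemokine, did not pass the filter on low counts and was not tested. It had 37, 116 and 12 UMIs in control mice and 0 in each Pre-MET mouse, so the Pre-MET level was at least 17.6-fold lower with the same floor. Gzma was at 2003, 354 and 898 CPM in control and at 786, 136 and 24.7 CPM in Pre-MET mice, with overlapping groups (-1.83 ± 0.74, adjusted p = 0.239). Gzmb was at 229, 83.4 and 167 CPM against 119, 104 and 86.5 CPM (-0.61 ± 0.47, adjusted p = 0.597), and Gzmk had 44, 4 and 7 UMIs against 1, 0 and 1. Klrc1, an inhibitory killer-cell receptor, had 52, 34 and 31 UMIs against 2, 3 and 1 (-2.62 ± 0.63, adjusted p = 0.0543; it passed the filter through control mice alone), whereas Klrc2 had 31, 12 and 14 against 7, 2 and 4 (-0.42 ± 0.75, adjusted p = 0.851). Groups did not overlap in Ccl4 and Klrc1 and overlapped in the granzymes. The 12 NK cell markers summed to 1303 to 2812 CPM in control T cells and to 469 to 1311 CPM in Pre-MET T cells, with overlapping groups. Of the markers, 11 to 12 and 6 to 9 were detected. Gzma, given above, is among these 12 markers, and its part in the sum was not separated. The sums of the 12 markers were lower, without overlap, in B cells (376 to 674 against 105 to 306 CPM) and CD4 Lef1 cells (409 to 554 against 156 to 246 CPM). NK cells were 15.8% to 19.9% of immune cells in control lungs and 2.06% to 6.84% in Pre-MET lungs. The part of NK cell RNA in the T cell levels was not tested. The 12 T cell markers, all detected in every mouse, also summed to less in Pre-MET T cells, from 6861 to 7339 CPM in control to 5238 to 5815 CPM. The 12 B cell markers went from 526 to 688 CPM (8 to 9 detected) to 408 to 432 CPM (5 to 6 detected). The 14 markers of innate lymphoid and gamma-delta T cells moved the other way, from 122 to 253 CPM (5 to 8 detected) to 272 to 360 CPM (4 to 5 detected). The groups did not overlap in these 3 sums, whose part in the T cell changes was not tested. Pre-MET T cell sums held fewer UMIs than control sums, as given above. Counts of detected markers, here and below, were not set to equal depth.

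**Figure D2:**
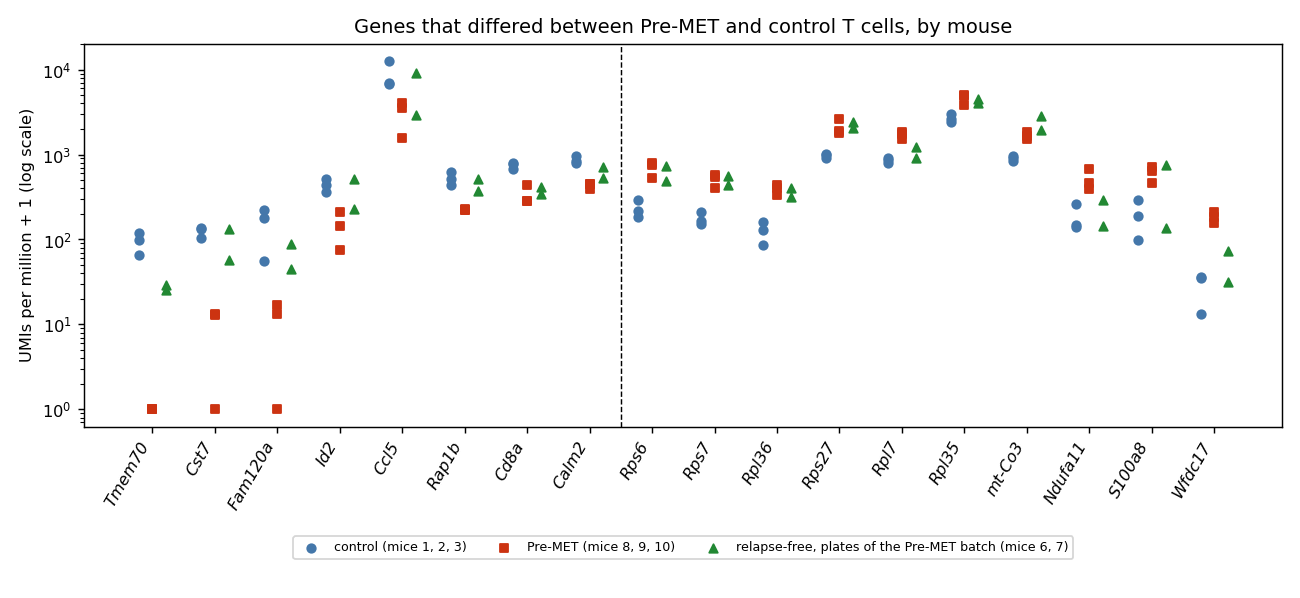
Level in the summed T cells of each mouse (CPM + 1, log axis) of the 8 genes that fell (left of the dashed line) and 10 of those that rose, with 3 control and 3 Pre-MET mice and relapse-free mice 6 and 7 on plates of the Pre-MET sequencing batch. Control and Pre-MET points do not overlap for any gene shown, and the relapse-free points of the ribosomal protein genes Rps6 and Rps27 lie among or near the Pre-MET points. The Pre-MET points sum plates of both Pre-MET batches, whereas the relapse-free points come from plates of only 1 of them.

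Of the 69 ribosomal protein genes tested in T cells, 9 rose and 63 had a positive fold change (median log2 0.48, against -0.06 over all genes tested). Rows whose sequence is similar to a ribosomal protein mRNA, mostly pseudogenes, held the largest number of rises, 28 among 346 tested, with 321 positive. Reads of such a row and of its parent gene are hard to tell apart, so the split between them is uncertain. The median over the remaining 2391 protein-coding genes was -0.22. In CPM, a higher share of ribosomal UMIs leaves a lower share to the other genes. The fold changes were fitted with TMM factors, and the part of the ribosomal share in this median was not tested.

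Rps6, a protein of the small subunit and a target of mTOR signaling, was at 290, 184 and 215 CPM in control mice and at 524, 760 and 791 CPM in Pre-MET mice (log2 fold change 1.60 ± 0.27, adjusted p = 0.0198). Rps27 was at 999.6, 903 and 1016 CPM against 2634, 1784 and 1915 CPM (1.12 ± 0.19, adjusted p = 0.0187). All 3 Pre-MET mice lay above all 3 control mice for both of these genes. Rps7, Rpl36, Rpl7, Fau, Rpl35 and Rps27rt also rose, with Rpl35 at 2628, 2434 and 2983 CPM against 4969, 4832 and 3854 CPM (0.78 ± 0.16, adjusted p = 0.0377).

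Ribosomal protein mRNAs are known to begin with an uninterrupted run of C and T, the terminal oligopyrimidine tract, through which their translation is regulated. The start sites of genes on each side of the comparison are therefore shown, as the 15 bases before and the 15 after the RefSeq start (build GRCm38.p6, sense strand, 5′ to 3′). Capitals mark the longest run made only of C and T.
Fau, higher, chr19:6057932-6057961 (+): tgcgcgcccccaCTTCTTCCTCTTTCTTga
Rpl35, higher, chr2:39005117-39005146 (-): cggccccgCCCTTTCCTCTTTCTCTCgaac
Rps27, higher, chr3:90213634-90213663 (-): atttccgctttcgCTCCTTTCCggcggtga
Rps6, higher, chr4:86857353-86857382 (-): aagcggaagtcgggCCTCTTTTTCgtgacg
Cst7, lower, chr2:150570400-150570429 (+): tggttaaaatgaTTCagcaagaaaccacgc
Id2, lower, chr12:25096078-25096107 (-): cgcccggctcgcgCTTCattctgaaccgag
Cd8a, lower, chr6:71373412-71373441 (+): tcagCTCTgtctgcagctggctaaaggagc
The runs of these 4 ribosomal protein genes were 16, 18, 9 and 10 bases long, and those of Rps7 and Rps27rt, which also rose and are not printed, only 5 and 6. The runs of Cst7, Id2 and Cd8a were 3, 4 and 4 bases long, and those of Fam120a and Rap1b 4 and 3. A run of at least 7 bases was present in 4 of the 6 ribosomal protein genes with a RefSeq entry among the 9 that rose, in 28 of 57 of the ribosomal protein list (49.1%), in 0 of 5 with an entry among the 8 genes that fell, and in 4992 of 27025 promoters (18.5%). These are letters in a window and no measurement of translation.

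The ribosomal share of all UMIs was higher in Pre-MET mice in each lymphocyte population and also in monocytes. In T cells it was 20.8%, 19.8% and 22.8% in control mice and 28.5%, 29.3% and 26.8% in Pre-MET mice 8, 9 and 10. In NK cells it was 9.46%, 9.33% and 10.6% against 13.6%, 11.6% and 12.9%, and in B cells 17.6%, 13.5% and 15.8% against 20.4%, 20.1% and 19.2%. In monocytes, which are no lymphocytes, it was 10.1%, 8.94% and 9.64% against 11.8%, 12.2% and 11.0%, and in neutrophils the groups overlapped (1.75% to 2.64% and 1.57% to 2.19%).

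Relapse-free lungs came from mice that had also received tumor cells at 8 weeks of age, whose tumor had been resected and in which no metastasis appeared. They gave T cells on other plates of both sequencing batches that held the Pre-MET plates. In the batch of 6 of the 8 Pre-MET plates, 3 of the 4 plates of relapse-free mouse 6 were sorted on the Pre-MET gate without photoactivation, whereas its other plate and all 6 plates of mouse 7 came from gates set by photoactivation. In that batch the ribosomal share of T cells was 30.4% and 26.3% in relapse-free mice 6 and 7 and 32.6%, 29.3% and 30.8% in Pre-MET mice 8, 9 and 10. Mouse 6 lay within the range of the Pre-MET mice and mouse 7 below it. On plates of the Pre-MET gate alone, from both batches and chosen after seeing the data, the share was 26.6% in mouse 6 (262 T cells) and 19.7% in mouse 7 (67 T cells), beside 28.5%, 29.3% and 26.8% in the Pre-MET mice. The share also differed between the 2 batches within a mouse on this gate, at 32.6% and 24.6% in Pre-MET mouse 8, 30.8% and 24.5% in Pre-MET mouse 10 and 30.1% and 23.7% in relapse-free mouse 6. The 67 T cells of mouse 7 were all from the batch with the lower shares. In NK cells of the first batch the share was 14.5% and 13.7% in relapse-free mice 6 and 7. In the 4 relapse-free mice that were in neither Pre-MET batch, it was 18.1% to 20.6% in T cells. Rps6 was at 736 and 486 CPM in T cells of relapse-free mice 6 and 7 in the shared batch, beside 670, 760 and 827 CPM in the Pre-MET mice of that batch, and Rps27 at 2388 and 2063 beside 2872, 1784 and 3077 CPM. Within this batch 0 of 2530 T cell genes differed between Pre-MET and relapse-free mice at an adjusted p below 0.05 (0.0%), and 104 at an unadjusted p below 0.05 (4.11%), among them 0 of the 37 ribosomal rises. On the Pre-MET gate alone, 1 of 1830 genes was called (0.0546%), S100a8, and 89 had an unadjusted p below 0.05 (4.86%), among them 1 of the 37 ribosomal rises. For the difference from control mice the batch and the group cannot be told apart.

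**Figure D3:**
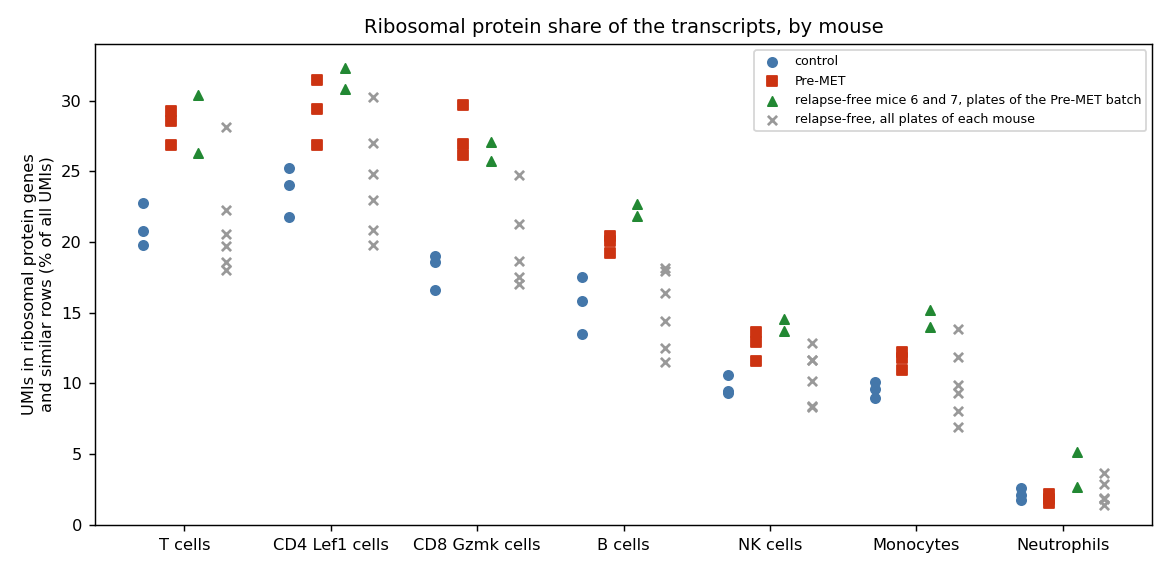
Share of all UMIs in ribosomal protein genes and rows similar to them (%, vertical axis) in 7 cell populations, with 1 point per mouse for control, Pre-MET and relapse-free mice. In T cells, control mice lie at 19.8% to 22.8% and Pre-MET mice, over their plates of both batches, at 26.8% to 29.3%. Relapse-free mice 6 and 7, on plates of only 1 of these batches, lie at 30.4% and 26.3%. On plates of that batch Pre-MET mice 8, 9 and 10 were at 32.6%, 29.3% and 30.8%, which is not drawn.

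The effector genes were also set beside the shared batch. Ccl5 was at 2901 and 9048 CPM in T cells of relapse-free mice 6 and 7 and at 2991, 3496 and 1952 CPM in the Pre-MET mice of that batch, with an unadjusted p of 3.9e-05 and an adjusted p of 0.0991 by edgeR. Relapse-free mouse 6 lay within the range of the Pre-MET mice and mouse 7 above it. Rap1b was at 520 and 369 CPM beside 120, 224 and 66.2 CPM (unadjusted p = 0.0032, adjusted p = 0.731), and Id2 at 229 and 511 CPM beside 144, 208 and 132 CPM (unadjusted p = 0.0234, adjusted p = 0.999). Cst7 was at 55.7 and 133 CPM beside 23.9, 0 and 0 CPM and was not tested there. Of the 8 genes that fell, 5 were tested in this batch and 3 had an unadjusted p below 0.05, and Tmem70, at 24.8 and 27.9 CPM in the relapse-free mice, was 0 in all 3 Pre-MET mice. On plates of the Pre-MET gate, the 5 tested of the 8 falls all had negative fold changes against relapse-free mice. Each had an unadjusted p below 0.05 by edgeR, and 0 of them passed the adjustment. Cd8a was at 384 and 889 CPM in relapse-free mice 6 and 7 beside 286, 280 and 432 CPM in the Pre-MET mice. For Cd8a and Ccl5, mouse 6 lay within the range of the Pre-MET mice and mouse 7, with 67 T cells, above it. Tmem70, not tested on this gate, was at 37.3 CPM in relapse-free mouse 6 and at 0 in mouse 7 and all Pre-MET mice. There Id2 was at 608 and 720 CPM in relapse-free mice 6 and 7 beside 143, 208 and 74.1 CPM (unadjusted p = 7.01e-05, adjusted p = 0.0642), and Ccl5 at 2990 and 14756 CPM beside 4052, 3496 and 1581 CPM (adjusted p = 0.768). These comparisons share the Pre-MET mice with those against control lungs and are not independent of them.

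Some of the other rises in T cells were transcripts of myeloid cells. S100a8, a calcium-binding protein abundant in neutrophils, was at 96.7, 187 and 289 CPM in control T cells and at 465, 704 and 642 CPM in Pre-MET T cells (1.70 ± 0.35, adjusted p = 0.0377). Wfdc17, a secreted protease inhibitor family member of myeloid cells, was at 35.5, 34.5 and 12.2 CPM against 155, 208 and 185 CPM (2.70 ± 0.55, adjusted p = 0.0377). Both genes were much higher in the neutrophils themselves, where S100a8 was at 64581 to 131828 CPM in control and 114069 to 175055 CPM in Pre-MET mice. The 19 neutrophil markers summed to 297 to 610 CPM in control T cells, with 11 to 15 of them detected, and to 775 to 1512 CPM in Pre-MET T cells, with 8 to 13 detected. Neutrophils were 1.90% to 5.18% of immune cells in control lungs and 5.97% to 16.2% in Pre-MET lungs. Monocytes were 16.9% to 19.1% and 43.6% to 59.9%, and the 29 monocyte and macrophage markers summed to 2256 to 2503 CPM in control T cells (22 to 24 detected) and 2448 to 3277 CPM in Pre-MET T cells (20 to 22 detected), with overlapping groups. Of the 11 of these markers that were tested, Wfdc17 rose, 7 were positive and 4 negative. Wells that received no cell held 697 UMIs in 36 control wells and 461 UMIs in 32 Pre-MET wells, of which 8 and 7 were S100a8. Leaving out wells with over 1% of myeloid marker UMIs, a choice that uses these transcripts themselves, gave S100a8 a log2 fold change of 1.56 ± 0.40 (adjusted p = 0.0726) and Wfdc17 one of 2.98 ± 0.62 (adjusted p = 0.0439). The part of free RNA in these rises was not tested. On plates of the Pre-MET gate, S100a8 was at 82.0 and 108 CPM in T cells of relapse-free mice 6 and 7 (adjusted p = 0.0395 against Pre-MET mice).

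The 10 alveolar macrophage markers moved the other way, from 135 to 245 CPM in control T cells (6 to 10 detected) to 23.8 to 64.0 CPM in Pre-MET T cells (1 to 3 detected). Macrophages were 7.19% to 9.94% of the immune cells in control lungs and 0.0% to 1.77% in Pre-MET lungs. Chil3, one of these markers, was at 164, 92.1 and 65.0 CPM against 23.8, 8.00 and 61.8 CPM in T cells (adjusted p = 0.239).

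The remaining rises were few. mt-Co3, a mitochondrially encoded subunit of cytochrome c oxidase, was at 964, 829 and 915 CPM against 1847, 1512 and 1643 CPM (0.90 ± 0.17, adjusted p = 0.0289), and it was the only one of 11 tested genes of the mitochondrial genome that rose, with 6 of the 11 positive. In the shared batch mt-Co3 was at 2809 and 1930 CPM in relapse-free mice 6 and 7. Ndufa11, a subunit of complex I, was at 258, 141 and 146 CPM against 679, 456 and 395 CPM (1.49 ± 0.32, adjusted p = 0.0407). Gm6170, a row with 96.9% identity to the elongation factor mRNA Eef1a1, had the smallest p, at 174, 132 and 215 CPM against 691, 784 and 704 CPM (2.08 ± 0.26, adjusted p = 0.0064). Its reads may belong to Eef1a1.

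The CD8 Gzmk class was examined to ask whether effector genes were also lower within 1 class. In its 543 tested genes, 0 were called in either direction by edgeR (0.0%), 82 had an unadjusted p below 0.05 and DESeq2 called 24. Id2 was at 573, 1264 and 865 CPM in control mice and at 201, 168 and 91.2 CPM in Pre-MET mice, from 2, 3 and 1 UMIs (-2.77 ± 0.63, adjusted p = 0.105). It passed the filter through control mice alone, so that only a fall could be found. Cst7 had 12, 19 and 19 UMIs in control mice and 0 in each Pre-MET mouse, at least 4.00-fold lower with the floor of 3 UMIs over the group, and it was not tested. Ccl5 was at 25428, 25243 and 24663 CPM against 19381, 23429 and 10126 CPM (-0.74 ± 0.26, adjusted p = 0.192). The groups did not overlap in these 3 genes, as in 37 of the 543 tested genes that were lower without overlap (6.81%). None of the 3 was called in the main edgeR fit, while Ccl5 and Id2 were called by DESeq2 and without the filter on low counts.

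MHC class I genes had negative fold changes in the same cells. H2-D1 was at 3305, 2888 and 2617 CPM in control and 1406, 1845 and 639 CPM in Pre-MET CD8 Gzmk cells (-1.36 ± 0.34, adjusted p = 0.105). H2-K1 was at 2751, 2545 and 2551 CPM against 1707, 1342 and 912 CPM (-1.22 ± 0.30, adjusted p = 0.105). B2m, which pairs with both, overlapped between the groups (-0.34 ± 0.26, adjusted p = 0.572). None of the 3 was called in the main edgeR fit, while H2-D1 and H2-K1 were called by DESeq2 and without the filter on low counts. The median over the 5 tested genes of the MHC class I list was -1.03, against -0.07 over all genes tested and -0.37 over the 307 protein-coding genes outside the ribosomal classes. Nkg7, a granule membrane protein, was at 5617, 6447 and 4702 CPM against 4921, 3579 and 2281 CPM (-0.88 ± 0.29, adjusted p = 0.159). It was also called by DESeq2 and without the filter on low counts. Cd8a overlapped between the groups (-0.79 ± 0.52, adjusted p = 0.488).

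In the CD4 Lef1 class, 0 of 1952 genes were called in either direction by edgeR (0.0%), 266 had an unadjusted p below 0.05 and DESeq2 called 55. Of its tested members of the ribosomal protein list 41 were positive and 14 negative, and of those of the monocyte and macrophage markers 5 and 4. Rps27 was at 1221, 979 and 1281 CPM against 2607, 1746 and 1971 CPM (0.83 ± 0.21, adjusted p = 0.171), and S100a8 at 104, 177 and 281 CPM against 490, 705 and 638 CPM (1.71 ± 0.38, adjusted p = 0.135). B2m was at 6791, 6709 and 6747 CPM against 5503, 4219 and 4148 CPM (-0.57 ± 0.16, adjusted p = 0.176). Id2 overlapped here, at 227, 162 and 85.9 CPM against 178, 235 and 93.8 CPM (0.09 ± 0.52, adjusted p = 0.961), and its sign turned in 3 alternatives. Id2 fell over all T cells, whereas the difference of its change between CD8 Gzmk and CD4 Lef1 cells was not among the genes called, of which there were 0 of 1381 (0.0%), with 109 at an unadjusted p below 0.05 and 0 by DESeq2.

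In NK cells, 0 of 1579 genes were called in either direction by edgeR (0.0%), with 137 at an unadjusted p below 0.05 and 0 by DESeq2. The groups overlapped in the effector genes Gzma, Ccl5, Cst7 and Ccl4. Gzma was at 13970, 11060 and 14055 CPM in control mice and 15251, 13359 and 12467 CPM in Pre-MET mice (-0.10 ± 0.20, adjusted p = 0.918). The plain means of its CPM lay the other way, at 13029 and 13692 CPM. CPM are scaled to plain UMI totals, whereas fold changes were fitted with TMM factors, and the part of this difference was not tested. Ccl5 was at 26809, 29281 and 30364 CPM against 20746, 25130 and 32454 CPM (-0.34 ± 0.19, adjusted p = 0.648). Cst7 was at 299, 439 and 267 CPM against 458, 339 and 515 CPM, and Ccl4 had 113, 141 and 121 UMIs against 42, 37 and 3 (0.09 ± 0.41, adjusted p = 0.963). The heat shock list had a median of -1.26 over 7 tested genes against -0.12 over all, with Hsp90ab1, a cytosolic chaperone, at 2241, 1353 and 1296 CPM against 779, 755 and 721 CPM (-1.26 ± 0.35, adjusted p = 0.375). Klrc2, an activating receptor, was at 425, 607 and 393 CPM against 916, 755 and 1236 CPM (0.78 ± 0.38, adjusted p = 0.607). Neither gene passed the test, and neither overlapped between the groups, as held for 145 of the 1579 genes tested in the lower direction (9.18%) and 129 in the higher (8.17%). The NK Ncr1 class holds nearly all of these cells and gave 0 of 1518 calls by edgeR in either direction (0.0%), 141 at an unadjusted p below 0.05 and 0 by DESeq2.

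Between T and NK cells the Pre-MET change differed in 1 of 3426 genes (0.0292%), Ccl4, which was at 0 in Pre-MET T cells and present in Pre-MET NK cells (adjusted p = 0.0323). The control UMIs of Ccl4 in T cells came mostly from mouse 2. Without mouse 1, 8, 9 or 10 the adjusted p lay between 0.0684 and 0.342, and DESeq2 gave 0.0923.

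In B cells, 0 of 706 genes were called in either direction by edgeR (0.0%), with 69 at an unadjusted p below 0.05 and 0 by DESeq2. The groups overlapped in Igkc and H2-Ab1. Igkc, the kappa light chain, was at 13877, 17245 and 16859 CPM in control mice and 19380, 11277 and 14822 CPM in Pre-MET mice (-0.19 ± 0.23, adjusted p = 0.839). H2-Ab1, an MHC class II chain, was at 10374, 8249 and 11409 CPM against 11112, 7456 and 8914 CPM (-0.23 ± 0.22, adjusted p = 0.755). The smallest p belonged to Ccl5, which B cells do not typically make. It had 38, 33 and 62 UMIs in control B cells and 1, 1 and 0 in Pre-MET B cells (-4.68 ± 0.85, adjusted p = 0.147), and it passed the filter through control mice alone.

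Ccl5 was also present outside its usual sources in control lungs. It was found in 69 of 203 control B wells (34.0%) and in 2 of 75 Pre-MET B wells (2.67%), at median depths of 751 to 876.5 and 767 to 891 UMIs. In monocytes it was at 508, 267 and 610 CPM in control and 53.7, 64.1 and 28.4 CPM in Pre-MET mice, and in neutrophils at 481, 439 and 885 CPM against 81.5, 101 and 56.7 CPM. The wells that received no cell held 7 Ccl5 UMIs in control and 2 in Pre-MET plates. In CD4 Lef1 cells Ccl5 was at 578, 348 and 437 CPM against 22.3, 157 and 282 CPM (-1.53 ± 0.53, adjusted p = 0.271). All of these cells had far less Ccl5 than CD8 Gzmk and NK cells. The groups did not overlap in B cells and CD4 Lef1 cells, in which 7.08% and 9.17% of the genes tested were lower without overlap, and monocytes and neutrophils were not tested. NK cell markers were also lower without overlap in these B and CD4 Lef1 cells, and NK cells were a smaller share of Pre-MET than of control lungs, as given above. The part of NK cells in this low-level Ccl5, and its part in the fall over all T cells, were not tested.

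**Figure D4:**
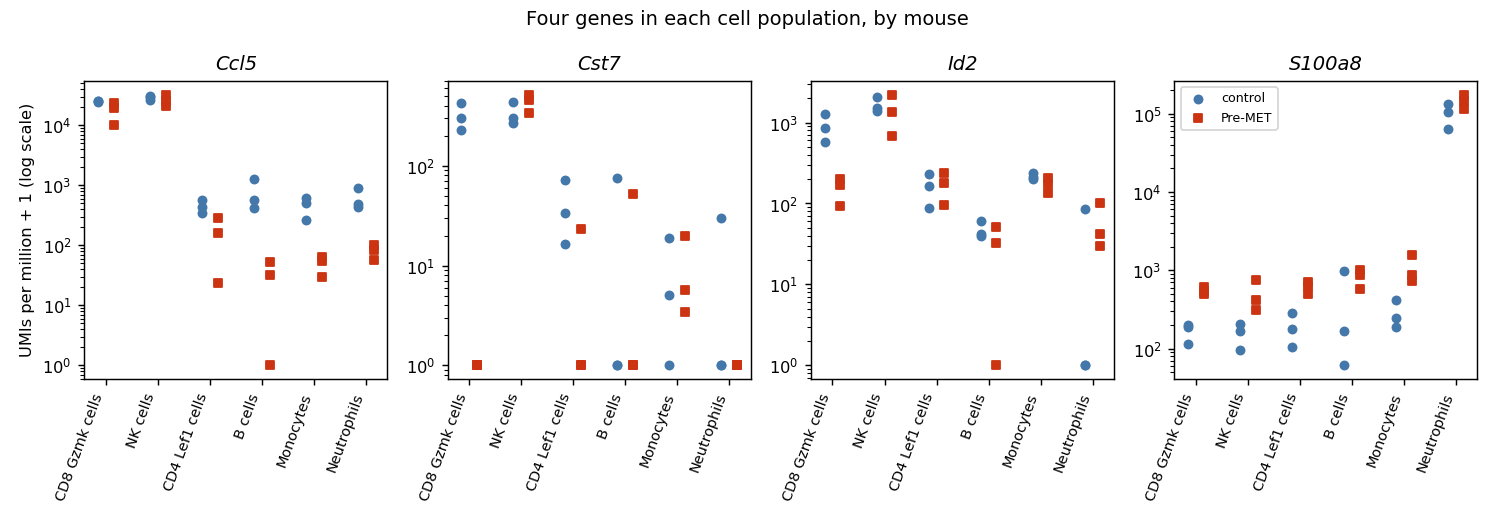
Level of Ccl5, Cst7, Id2 and S100a8 (CPM + 1, log axis) in the summed cells of 6 populations, with 1 point per control or Pre-MET mouse. Ccl5 lies lower in Pre-MET B cells, monocytes and neutrophils, Cst7 is at 0 in Pre-MET CD8 Gzmk cells and overlaps in NK cells, and S100a8 is highest in neutrophils.

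The gene lists are given over T cells by their counts and medians, with no test of a list. Over all 3218 genes tested, 1722 were negative (53.5%) and 1496 positive (46.5%), beside the 0.249% that fell and the 1.49% that rose. Of the 3218, 89 passed the filter on low counts through control mice alone, so that only a fall could be found in them. Another 61 passed through Pre-MET mice alone. Cst7 and Klrc1 were among the 89, and the number of such genes in each list below was not counted. The ribosomal protein list had 60 tested members, of which 7 rose and 54 were positive (median 0.44). The cytotoxic granule list had 12, of which Cst7 fell and 10 were negative (-0.73), the killer-cell receptor list 10, of which 0 were called and 10 were negative (-0.71), and the T cell receptor list 24, of which Cd8a fell and 19 were negative (-0.48). The effector cytokine list had 3 tested members, of which Ccl5 fell. The MHC class I list had 21 tested, 0 called and 16 negative (-0.32). Among 31 tested type I interferon response genes, 0 were called, 16 were positive and the median was 0.05, and among 10 interferon-gamma GTPases 0 were called and the median was 0.01. The naive and memory list had 31 tested members with 1 fall, Id2, and 22 negative (-0.19). Against these, the median of all 3218 tested genes was -0.06. That of the 2391 protein-coding genes outside the ribosomal classes was -0.22, with 838 of them positive.

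Of the other lists in T cells, the oxidative phosphorylation list had 51 tested members with 1 rise, Ndufa11 (median -0.07), and the mitochondrial genome list had a median of 0.32. No member was called of the lymphocyte trafficking (20 tested, -0.19), immediate early (13, -0.14), heat shock (8, -0.28), glucocorticoid response (11, -0.41), glycolysis (6, -0.52), checkpoint and activation (7, -0.03), MHC class II (4, -0.72), B cell identity (6, 0.01) and cell cycle (7, 0.12) lists. In the other populations no list had a called member, since 0 genes were called.

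**Figure D5:**
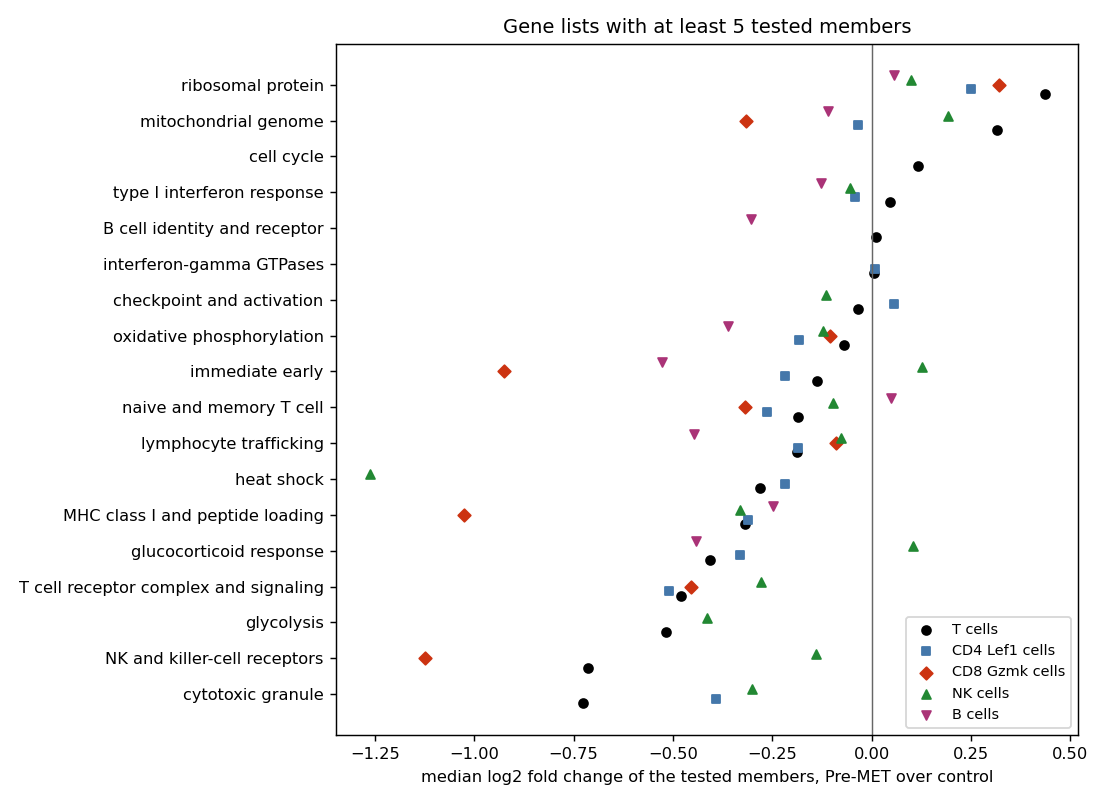
Median log2 fold change (Pre-MET over control, horizontal axis) of the tested members of each gene list with at least 5 of them, for T, CD4 Lef1, CD8 Gzmk, NK and B cells. The ribosomal protein list lies at 0.44 in T cells, 0.25 in CD4 Lef1, 0.32 in CD8 Gzmk, 0.10 in NK and 0.06 in B cells, and at -0.05 in the NK Ncr1 class, which is not drawn, and the cytotoxic granule and killer-cell receptor lists lie at -0.73 and -0.71 in T cells.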

How the data were processed

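Single immune cells were sorted into 384-well plates, and SPIDseq libraries were read as unique molecular identifiers. The UMI counts per gene and well were deposited by the authors, who aligned reads to mm10 with HISAT, excluded reads mapping to several places, required at least 500 UMIs per well and annotated cells with metacells (bcl2fastq 2.15.0.4 per the labels). Here raw counts of the annotated wells were summed per mouse and population, leaving out 92 spike-in rows. Pre-MET and control sums of populations with at least 10 cells per mouse (3 against 3) were compared with edgeR 4.0.16 (TMM, filterByExpr, quasi-likelihood test) and Benjamini-Hochberg adjustment over all genes tested, with no covariate. Differences of the Pre-MET change between 2 populations of the same mice had the mouse as a term. DESeq2 1.42.0 was an alternative, and the script was tested on simulated data.

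Rows were classed with GENCODE M21 and BLAST 2.17.0 (at least 80% identity over 50% of the row), and promoters came from RefSeq. No doublet caller was run. Named genes were the 5 largest non-overlapping rises and falls, called list members (at most 4) or otherwise the 2 most abundant tested members of a list, and 7 effector genes. Some genes that this rule or the marker lists hold are not reported here. All other genes named were chosen after their values were seen. The populations and gene lists were chosen with earlier results of these data known. P-values against control mice rest on 3 mice per group in the main fits, and those on plates shared with relapse-free mice on 2 relapse-free mice. The test estimates the variance of a gene with help from the other genes, so a p-value does not measure that gene's own spread alone. Floors and small counts carry counting error only.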

Additional observations from a re-analysis of the deposited data

Results flagged for a closer look

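The Pre-MET change of Ccl4 differed between T cells and NK cells. Its log2 difference (T minus NK) was -7.16 ± 1.39 (SE) with an adjusted p of 0.0323 (0.0322994 before rounding) by edgeR, which is a fitted value and no bound, because Ccl4 was at 0 in Pre-MET T cells. The difference was negative in all 13 fits. Its adjusted p ranged from 0.000134 to 0.342 over the alternatives, and was 0.0684 without mouse 1, 0.0750 without mouse 8, 0.342 without mouse 9 and 0.198 without mouse 10.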

How the results depend on the processing

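No paired analysis was possible because control and Pre-MET lungs came from different mice. The differences between 2 populations, summed from the same mice, had the mouse as a term throughout. In T cells the 56 calls became 94 with DESeq2, 0 with cells of at least 1000 UMIs, 37 without wells of over 1% myeloid marker UMIs, 0 with all statuses in the fit, 93 with Pre-MET plates of 1 sequencing batch (chosen after seeing the data), and 0 to 42 with 1 mouse left out. They were 56 with relative log expression size factors, 82 with cells thinned to 500 UMIs and 74 with no filter on low counts, where 24 rose and 50 fell and the median of all genes moved to -0.69.

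In populations with 0 calls, DESeq2 gave 55 in CD4 Lef1 and 24 in CD8 Gzmk cells. Without the filter there were 13 calls in NK, 6 in B, 9 in CD4 Lef1, 22 in CD8 Gzmk and 11 in NK Ncr1 cells. Cells of at least 1000 UMIs gave 90 in NK, 14 in B and 82 in NK Ncr1 cells, each with Pre-MET mouse 9 as the lone Pre-MET sample, which is assumed to vary like the control samples. Pre-MET plates of 1 batch gave 9 in B, 29 in CD4 Lef1 and 62 in CD8 Gzmk cells, with that same lone mouse in B and CD8 Gzmk cells. Thinning gave 22 in CD4 Lef1 cells. Leaving out 1 mouse gave 0 to 1 calls in NK, NK Ncr1 and CD4 Lef1 cells.

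The difference between T and NK cells, 1 gene, became 2 with DESeq2, 5 without the filter, 82 with cells of at least 1000 UMIs (with mouse 9 as the lone Pre-MET mouse), 0 with thinning, 0 without wells of over 1% myeloid markers (2 Pre-MET mice) and 0 to 7 with 1 mouse left out. That between CD8 Gzmk and CD4 Lef1 cells became 3 without those wells and 0 to 5 with 1 mouse left out. CD8 Gzmk cells of at least 1000 UMIs were not run, since 0 Pre-MET mice had 10 of them. The cause of these shifts was not tested.

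Single genes that turned their sign were never called. Id2 in CD4 Lef1 cells was at -0.17 without the filter and ranged from -0.30 (without mouse 9) over -0.22 (without mouse 3) to 0.37 with 1 mouse left out. In NK cells Gzmb was at 0.0715 without myeloid-marker wells and Klrc1 ranged from -1.09 to 0.0392 (without mouse 9) with 1 mouse left out. Nkg7 was at -0.37 without the filter, -0.28 without myeloid-marker wells, -0.0345 with Pre-MET plates of 1 batch and from -0.114 (without mouse 8; -0.113 without mouse 9) to 0.12 with 1 mouse left out. Ccl4 in NK cells was at -0.0093 with DESeq2, -0.42 without the filter, -0.82 with cells of at least 1000 UMIs, -0.37 with plates of 1 batch and from -0.65 (without mouse 8) over -0.001 (without mouse 1) to 0.30 with 1 mouse left out.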
